A study of Rattus norvegicus with 24 samples.

Results

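The 33 genes described here carry long-chain fatty acids from lipoproteins into the cell and through mitochondrial beta-oxidation. They were chosen by symbol from a list of uptake, carnitine shuttle, beta-oxidation, lipid droplet and regulatory genes. All 33 were found among the 36856 genes of each of 3 deposited count tables. The rule uses no measured value, but members and lists were chosen with earlier results of these data known. The samples were 24 RNA-seq libraries from Sprague-Dawley rats of 120 to 200 g, 4 rats in each of 6 groups. Every rat ate a synthetic diet for 7 days. In the hormone experiment the control and aldosterone rats both ate 0.4% Na, and the aldosterone rats also carried an osmotic minipump that released 12 µg of the hormone per day. In the salt experiment the high-salt rats ate 0.4% Na, which the protocol names a control diet, and the low-salt rats ate 0.01 to 0.02% Na. The hormone experiment sampled the kidney papilla (inner medulla), and the salt experiment the papilla and a piece of heart ventricle. Each group held 2 rats of batch 1 (replicates 1 and 2) and 2 of batch 2 (replicates 3 and 4). What a batch stands for, and whether papilla and ventricle came from the same rats, is not given in the sources used here.

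Lipoprotein lipase frees fatty acids from circulating triglyceride, and carrier proteins and acyl-CoA synthetases take them up and trap them as acyl-CoA. The carnitine shuttle, which malonyl-CoA inhibits, moves the acyl group into the mitochondrion. There a repeated cycle of dehydrogenation, hydration, dehydrogenation and thiolysis shortens the chain, and electrons reach ubiquinone through the electron transfer flavoprotein. The working heart draws most of its energy from this route, whereas the renal inner medulla, where oxygen is scarce, relies largely on glycolysis.

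The libraries held 24299423 to 38318764 counts. Levels are given as CPM, a count scaled to a common library total, which are not divided by transcript length, so levels of different genes were not compared. Differences are log2 fold changes from edgeR's quasi-likelihood test, with their standard error (SE) and with Benjamini-Hochberg adjusted p-values over all genes tested, called under 0.05. The labels name all rats female. The libraries of the hormone experiment held 234.4 to 451.1 CPM of Xist and at most 0.32 CPM of Y-linked transcripts, but those of the salt experiment held at most 0.0932 CPM of Xist and 148 to 276 CPM of Y-linked transcripts. The tissue labels matched their markers: 12 cardiomyocyte genes summed to between 91790 and 110800 CPM in ventricle and at most 9.501 CPM in papilla, and 9 collecting duct genes to between 9841 and 16040 CPM in papilla. The papilla libraries also held thick ascending limb markers at a summed 1237 to 5020 CPM and proximal tubule markers at 132 to 1685 CPM. The part of those segments in the papilla levels was not tested. The 4 ventricle libraries of batch 1 also held proximal tubule transcripts, at a summed 36.8 to 163 CPM against 0.824 to 1.44 CPM in batch 2. High-salt ventricle replicate 2 stood apart in 2 further lists, with 112.9 CPM of thick ascending limb and 45.1 CPM of collecting duct markers, where the other 7 ventricle libraries held at most 9.47 and 4.13 CPM. In bulk tissue, fewer cells of a type and less RNA per cell cannot be told apart.

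Promoters are shown for 4 members: Pnpla2, whose diet response differed between batches, Hadha, which shares its promoter with Hadhb, and Plin5 and Ucp3, which were almost confined to ventricle in these libraries. Each is the 250 bases before the transcription start in RefSeq's GRCr8 table, 5′ to 3′ on the gene's strand. Capitals mark the nuclear receptor half-site AGGTCA and the GC box GGGCGG on either strand.
Pnpla2, chr1:205982029-205982278, plus strand: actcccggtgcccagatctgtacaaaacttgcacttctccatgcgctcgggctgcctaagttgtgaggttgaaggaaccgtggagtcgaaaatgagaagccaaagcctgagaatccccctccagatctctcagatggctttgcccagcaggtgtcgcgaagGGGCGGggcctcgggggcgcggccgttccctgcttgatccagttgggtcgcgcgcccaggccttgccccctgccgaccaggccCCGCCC
Hadha, chr6:31907551-31907800, plus strand: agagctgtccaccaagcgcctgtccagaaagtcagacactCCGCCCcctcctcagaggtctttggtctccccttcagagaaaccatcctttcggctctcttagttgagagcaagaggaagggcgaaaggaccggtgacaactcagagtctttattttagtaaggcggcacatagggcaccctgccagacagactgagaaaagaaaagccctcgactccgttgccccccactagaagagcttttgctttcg
Plin5, chr9:1033285-1033534, minus strand: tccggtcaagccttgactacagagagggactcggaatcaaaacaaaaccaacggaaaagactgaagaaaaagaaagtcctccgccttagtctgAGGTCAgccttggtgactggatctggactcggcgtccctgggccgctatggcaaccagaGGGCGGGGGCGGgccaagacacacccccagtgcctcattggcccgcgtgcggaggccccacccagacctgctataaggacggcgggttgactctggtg
Ucp3, chr1:164227660-164227909, plus strand: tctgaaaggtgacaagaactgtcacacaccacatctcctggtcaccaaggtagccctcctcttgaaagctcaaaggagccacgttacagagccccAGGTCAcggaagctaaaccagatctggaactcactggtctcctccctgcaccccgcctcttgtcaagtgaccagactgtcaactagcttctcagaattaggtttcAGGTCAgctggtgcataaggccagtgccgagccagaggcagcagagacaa
The table held promoters of 27 of the 33 members. AGGTCA stood in 6 of the 27 (Acacb, Acadvl, Echs1, Eci1, Plin5 and Ucp3) and in 14.1% of 33469 promoters. GGGCGG stood in 16 of the 27 and in 30.5% of all promoters. The spaced repeat AGGTCANAGGTCA was found in 0 of the 27 and in 0.0508% of all promoters. Hadha and Hadhb, which encode the 2 subunits of the trifunctional protein, start 300 bases apart on opposite strands, and their windows share 200 bases. Ucp3 and Ucp2 start 23462 bases apart on the same strand.

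The largest differences lay between the tissues on the same 0.4% Na diet. In ventricle against papilla, 31 of the 33 members were higher and 2, Cpt1a and Angptl4, were lower, all with adjusted p under the threshold (edgeR). Most genes differed between these tissues: of 18175 genes tested, 36.7% were higher and 41.1% lower in ventricle. The member counts, 31 higher and 2 lower, are read against those shares. The median log2 difference was 3.51 over the members and -0.13 over all genes. With libraries scaled to their totals alone, 3737 of all genes were higher and 11777 lower, the medians were 2.62 and -1.02, and the members stayed at 31 higher and 2 lower. Ratios given as times as high are of plain mean CPM, whereas log2 differences and fitted folds include the TMM scaling and lie further toward ventricle. For Acadm the ratio was 3.75 and the fitted fold 6.96, and for Cpt1a they were 0.333 and 0.617. In all 33 members the groups did not overlap in CPM, against 19.2% of all genes higher and 62.6% lower without overlap.

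**Figure D1:**
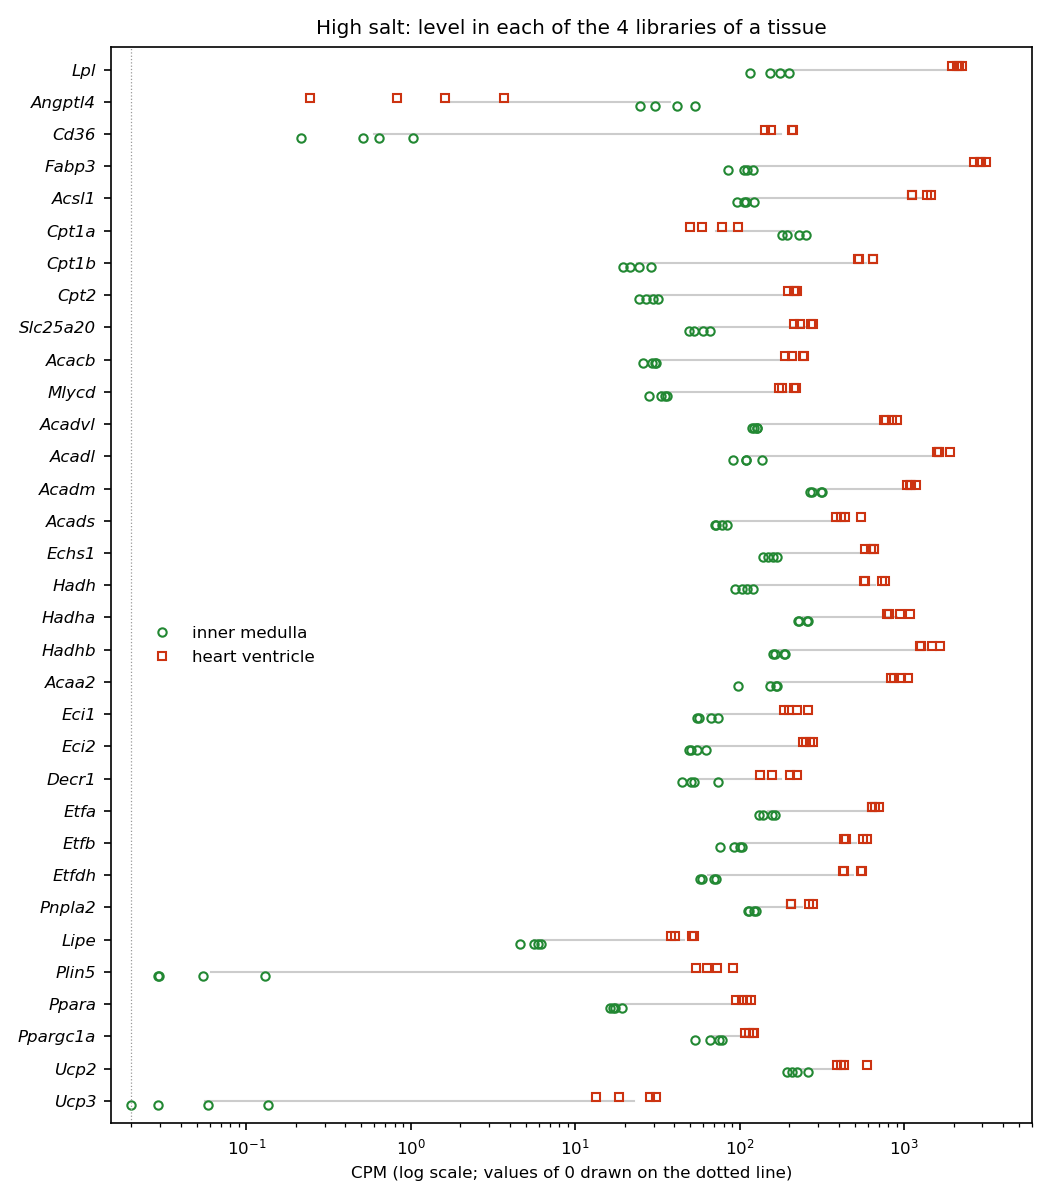
Level of each of the 33 members in the high-salt libraries, in CPM on a log axis. Circles are 4 papilla (inner medulla) libraries, squares 4 ventricle libraries, and grey lines join the group means. Ventricle lies to the right in 31 members and to the left in Angptl4 and Cpt1a; Plin5, Ucp3 and Cd36 show the widest gaps.

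Among uptake genes, Cd36, the fatty acid translocase of the plasma membrane, stood at 142, 155, 211 and 210 CPM in ventricle and at 0.646, 1.03, 0.510 and 0.214 CPM in papilla. The pooled counts were 20703 and 88, a ratio of 293 with a 95% interval of 238 to 365 for counting error alone. Lpl, which encodes lipoprotein lipase, ran from 1963 to 2267 CPM in ventricle and from 116 to 199 CPM in papilla, a log2 difference of 4.61 ± 0.19 (SE, adjusted p = 2.71e-08). Its inhibitor Angptl4 had the opposite order. It read 0.244, 0.822, 3.70 and 1.61 CPM in ventricle and 41.8, 30.4, 53.6 and 24.9 CPM in papilla (log2 -3.65 ± 0.60, adjusted p = 0.000347). Inside the cell, the fatty acid binding protein Fabp3 ran from 2666 to 3134 CPM against 85.6 to 120 CPM, and the acyl-CoA synthetase Acsl1 from 1121 to 1461 CPM against 96.2 to 123 CPM.

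The carnitine shuttle genes split by isoform. Cpt1b, the muscle form of carnitine palmitoyltransferase 1, stood at 530, 526, 648 and 645 CPM in ventricle and at 24.4, 28.9, 19.6 and 21.6 CPM in papilla (log2 5.53 ± 0.16, adjusted p = 3.66e-09). Cpt1a, the liver form that many other tissues also use, stood at 50.1, 59.2, 98.2 and 78.2 CPM in ventricle and at 228.7, 194, 182 and 255 CPM in papilla (log2 -0.70 ± 0.21, adjusted p = 0.0121). Every papilla library lay above every ventricle library for Cpt1a, and every ventricle library above every papilla library for Cpt1b. Cpt2, the inner membrane transferase, and the carrier Slc25a20 were higher in ventricle, at 7.53 and 4.40 times the papilla CPM. The same held for the genes that set malonyl-CoA: Acacb, the acetyl-CoA carboxylase of the outer mitochondrial membrane, was 7.61 times and Mlycd, malonyl-CoA decarboxylase, 5.90 times as high in CPM.

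All 15 genes of the oxidation cycle and its electron transfer were higher in ventricle, by 3.21 times (Decr1) to 15.02 times (Acadl) in CPM. Acadvl, Acadl, Acadm and Acads, the acyl-CoA dehydrogenases of very long, long, medium and short chains, were 6.66, 15.02, 3.75 and 5.86 times as high. Acadm read 1097, 1186, 1086 and 1039 CPM in ventricle against 312, 318, 269 and 277 CPM in papilla. The trifunctional protein genes differed in their ratio although they share a promoter region, at 3.71 times for Hadha and 8.10 times for Hadhb. Etfa and Etfb, the flavoprotein subunits, and Etfdh, which passes the electrons on to ubiquinone, were 4.46, 5.44 and 7.57 times as high.

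The 3 lipid droplet genes were all higher in ventricle, by ratios far apart. Plin5, a droplet coat protein that contacts mitochondria, read 62.9, 54.6, 91.8 and 72.8 CPM in ventricle and 0.0543, 0.131, 0.0294 and 0.0292 CPM in papilla, from 8132 and 9 pooled counts (ratio 1125, 95% interval 592 to 2461). Lipe, hormone-sensitive lipase, was 8.17 times as high in ventricle in plain CPM, with a fitted fold of 15.1. Pnpla2, adipose triglyceride lipase, was 2.01 times as high in plain CPM, and its fitted fold was 3.73 (log2 1.90 ± 0.12, adjusted p = 5.76e-07). Ucp3, an uncoupling protein of muscle, read 13.3, 18.4, 30.9 and 28.7 CPM in ventricle, and its 8 counts in papilla against 2640 in ventricle gave a ratio of 411 (95% interval 208 to 953). Ucp2, the widely expressed relative, was 2.07 times as high in plain CPM, with a fitted fold of 3.84. Ppara, the nuclear receptor that fatty acids activate, was 6.14 times as high, with a fitted fold of 11.4. Ppargc1a, its coactivator, stood at 108, 122, 121 and 114 CPM in ventricle and 53.8, 65.9, 78.3 and 74.5 CPM in papilla, 1.71 times as high, with a fitted fold of 3.17. The same fit on the low-salt libraries of both tissues, over 18159 genes, also called 31 members higher and 2 lower, with a member median of 3.57.

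In ventricle, low salt against high salt gave 0 called members of 33 with edgeR, where 0.0129% of 15473 genes were called higher and 0.0388% lower. Before adjustment, 10 members had a p under 0.05 with a higher value on low salt, and 0 with a lower one (all genes 5.68% and 4.92%). DESeq2 called 2 members higher, Acadm and Lpl, and 0 lower, against 1.22% and 0.737% of all genes. The log2 difference was positive in 31 members, against 48.2% of all genes, with a median of 0.15 against -0.01. With the replicate number as a block, the count over all genes went from 8 to 0 and the members stayed at 0.

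Acadm, the medium-chain acyl-CoA dehydrogenase, read 1316, 1306, 1281 and 1218 CPM on low salt and 1097, 1186, 1086 and 1039 CPM on high salt. The groups did not overlap, and the log2 difference was 0.25 ± 0.05 (adjusted p = 0.172 with edgeR, 8.72e-06 with DESeq2). Lpl read 2943, 2710, 2531 and 2622 CPM on low salt and 2086, 1963, 2165 and 2267 CPM on high salt, also without overlap (log2 0.38 ± 0.09, adjusted p = 0.221 with edgeR, 0.00209 with DESeq2). These 2 members were the only ones without overlap, against 1.85% of all genes in that direction and 2.5% in the other. Ucp2 read 981, 879, 564 and 891 CPM on low salt and 389, 429, 596 and 414 CPM on high salt. Replicate 3 of low salt lay below replicate 3 of high salt, and the other low-salt libraries lay above all high-salt ones (log2 0.89 ± 0.21, adjusted p = 0.226). Fabp3, with 3052, 3307, 3377 and 3212 CPM on low salt and 2928, 2666, 2912 and 3134 CPM on high salt, overlapped between the diets (log2 0.18 ± 0.07, adjusted p = 0.393). Its lowest low-salt library lay below its highest high-salt library.

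**Figure D2:**
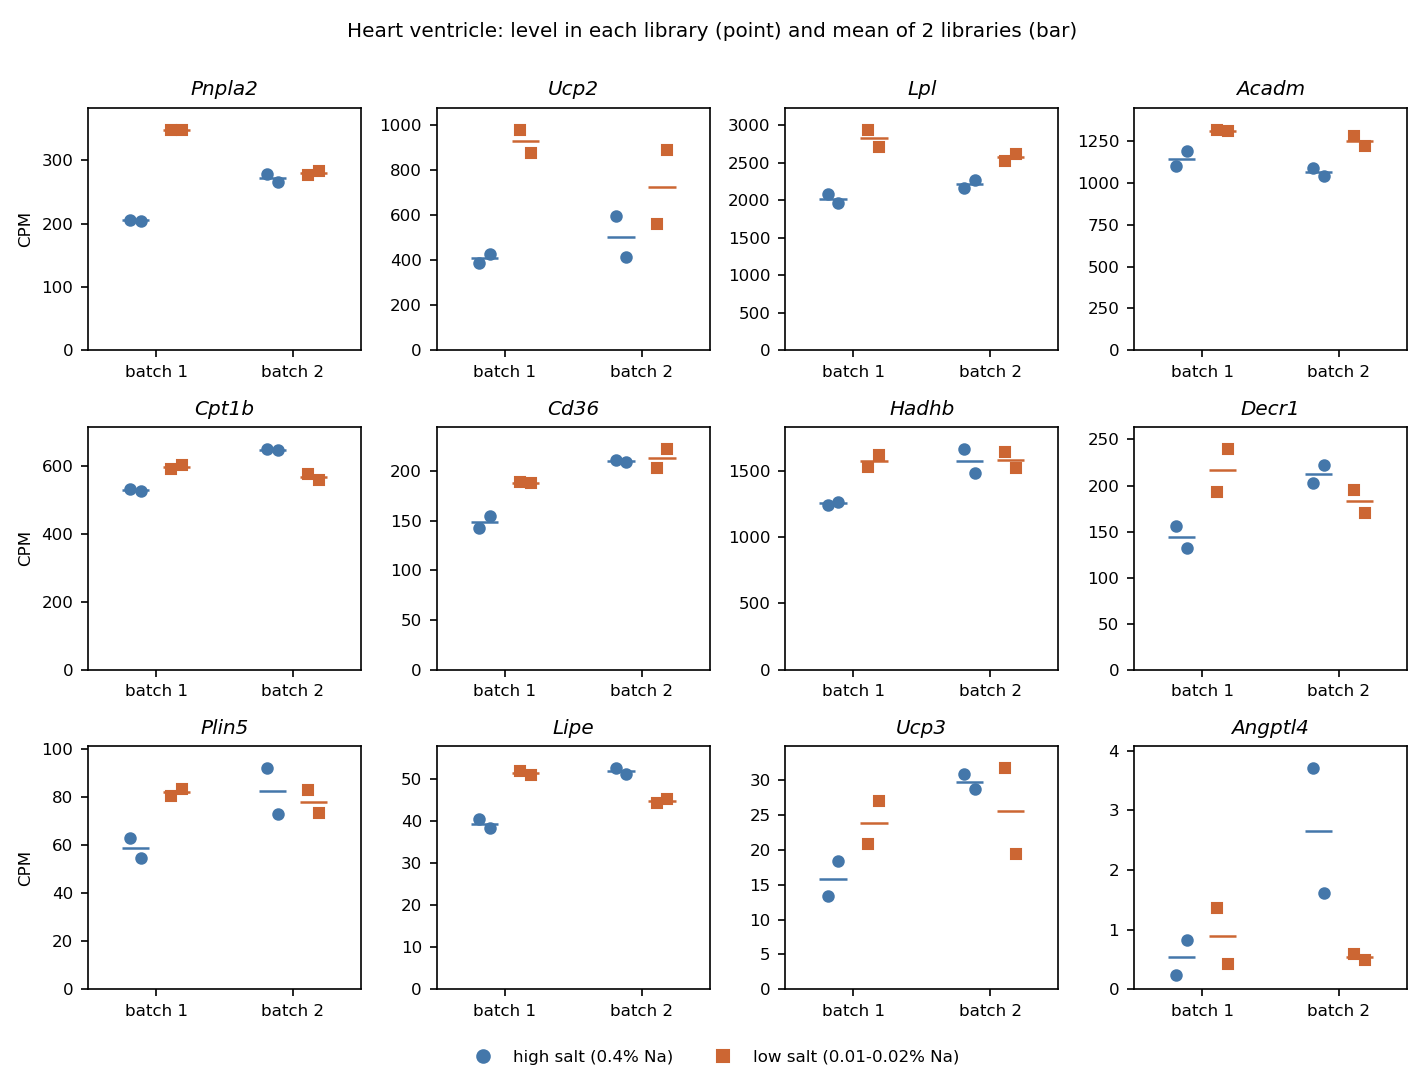
Levels of 12 members in the 8 ventricle libraries, in CPM from 0, by batch and diet; points are libraries and bars the mean of 2. In batch 1 Pnpla2 stood at 206 and 204 CPM on high salt and at 347 and 348 on low salt, and in batch 2 all 4 libraries lay between 266 and 284 CPM.

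The same comparison was then read within each batch. In batch 1, both low-salt libraries lay above both high-salt libraries in 26 of 33 members, where 15.2% of all genes did so, and 0 members had the reverse order, where 32.8% of all genes did. The exceptions in batch 1 were Acadl, Acads, Angptl4, Etfa, Etfb, Ppara and Ppargc1a. These orders are of plain CPM, without TMM scaling, so the shares of all genes also reflect differences in scale. The TMM factors of batch 1 were 0.957 and 0.972 on low salt and 0.994 and 1.03 on high salt. The scaled fit of batch 1 had a median log2 difference of 0.00 over all genes. In batch 2, 6 members had both low-salt libraries above (Acadl, Acadm, Acads, Eci2, Fabp3 and Lpl) and 6 had both below (Angptl4, Cpt1b, Decr1, Etfb, Lipe and Slc25a20), where 21.7% and 19.5% of all genes did. The median log2 difference of the members was 0.27 in batch 1 and 0.01 in batch 2. At an unadjusted p under 0.05, 21 members had higher values on low salt in batch 1 and 0 lower (all genes 6.8% and 8.49%). In batch 2 these counts were 2 and 3 (5.09% and 4.25%). After adjustment edgeR called 0 members in either batch alone.

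The diet response was then compared between batches as an interaction, batch 2 minus batch 1. Of 16453 genes, 0.0972% were called higher and 0.00608%, a single gene, lower. That gene was Pnpla2, the adipose triglyceride lipase that starts the breakdown of stored triglyceride. It read 206, 204, 279 and 266 CPM on high salt and 347, 348, 277 and 284 CPM on low salt. In batch 1 the diets were apart, whereas in batch 2 they lay within 1 narrow range. The log2 difference between diets was 0.83 ± 0.07 in batch 1 and 0.03 ± 0.08 in batch 2, and the interaction was -0.79 ± 0.09 (adjusted p = 0.0465). Its adjusted p was 3.92e-09 with DESeq2 and 0.0520 with DESeq2's size factors in edgeR. With each of the 8 libraries left out in turn, the interaction stayed between -0.83 and -0.75, but its adjusted p of 0.0963 to 0.176 no longer passed the threshold.

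The other members mostly had interactions of the same sign. The value was negative in 31 of 33 members, against 50.5% of all genes, with a median of -0.32 against -0.00. At an unadjusted p under 0.05, 18 were negative and 0 positive (5.22% and 7.52% of all genes). DESeq2 called 8 members (Acacb, Cpt1b, Decr1, Hadha, Hadhb, Lipe, Plin5 and Pnpla2) lower and 0 higher, where it called 0.754% and 1.53% of all genes. Lipe, which acts after Pnpla2 in lipolysis, read 40.5 and 38.5 CPM on high salt and 51.9 and 51.2 CPM on low salt in batch 1. In batch 2 the order turned, to 52.6 and 51.4 CPM on high salt and 44.5 and 45.4 CPM on low salt (interaction -0.67 ± 0.11, adjusted p = 0.0784 with edgeR, 0.00322 with DESeq2).

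Cpt1b had the same crossed pattern, with 530 and 526 CPM on high salt and 589 and 601 CPM on low salt in batch 1, and 648 and 645 CPM against 574 and 556 CPM in batch 2 (interaction -0.44 ± 0.09, adjusted p = 0.109). Decr1, the dienoyl-CoA reductase needed for unsaturated fatty acids, read 156 and 132 CPM on high salt and 193 and 240 CPM on low salt in batch 1. In batch 2 it read 203 and 223 CPM on high salt and 195 and 170 CPM on low salt (interaction -0.87 ± 0.19, adjusted p = 0.135). For both genes the batch 2 high-salt libraries lay well above those of batch 1. Plin5 read 62.9 and 54.6 CPM against 80.5 and 83.2 CPM in batch 1, and 91.8 and 72.8 CPM against 82.7 and 73.2 CPM in batch 2, high salt first (interaction -0.63 ± 0.18, adjusted p = 0.231). Hadha and Hadhb had like interactions of -0.42 ± 0.12 and -0.39 ± 0.11 (adjusted p = 0.212 and 0.208). Acacb read 209, 243, 246 and 188 CPM on high salt and 292, 286, 182 and 194 CPM on low salt (interaction -0.64 ± 0.18, adjusted p = 0.223).

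Acadm had like values in both batches: its diet difference was 0.27 ± 0.07 in batch 1 and 0.23 ± 0.08 in batch 2, and the interaction was -0.04 ± 0.09 (adjusted p = 0.893). Ucp2 gave 1.26 ± 0.10 and 0.52 ± 0.27, and Lpl 0.55 ± 0.10 and 0.21 ± 0.08, positive in both batches. Cd36 read 142, 155, 211 and 210 CPM on high salt and 189, 188, 204 and 222 CPM on low salt, and its difference was 0.41 ± 0.07 in batch 1 and 0.01 ± 0.09 in batch 2. Angptl4 stood at or below 3.70 CPM in every ventricle library, so its interaction of -3.10 ± 1.03 (adjusted p = 0.281) rests on few counts. Ucp3, with 13.3, 18.4, 30.9 and 28.7 CPM on high salt and 20.9, 26.9, 31.7 and 19.5 CPM on low salt, had an interaction of -0.89 ± 0.33 (adjusted p = 0.323). Its high-salt libraries of batch 1 were the lowest of the 8.

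**Figure D3:**
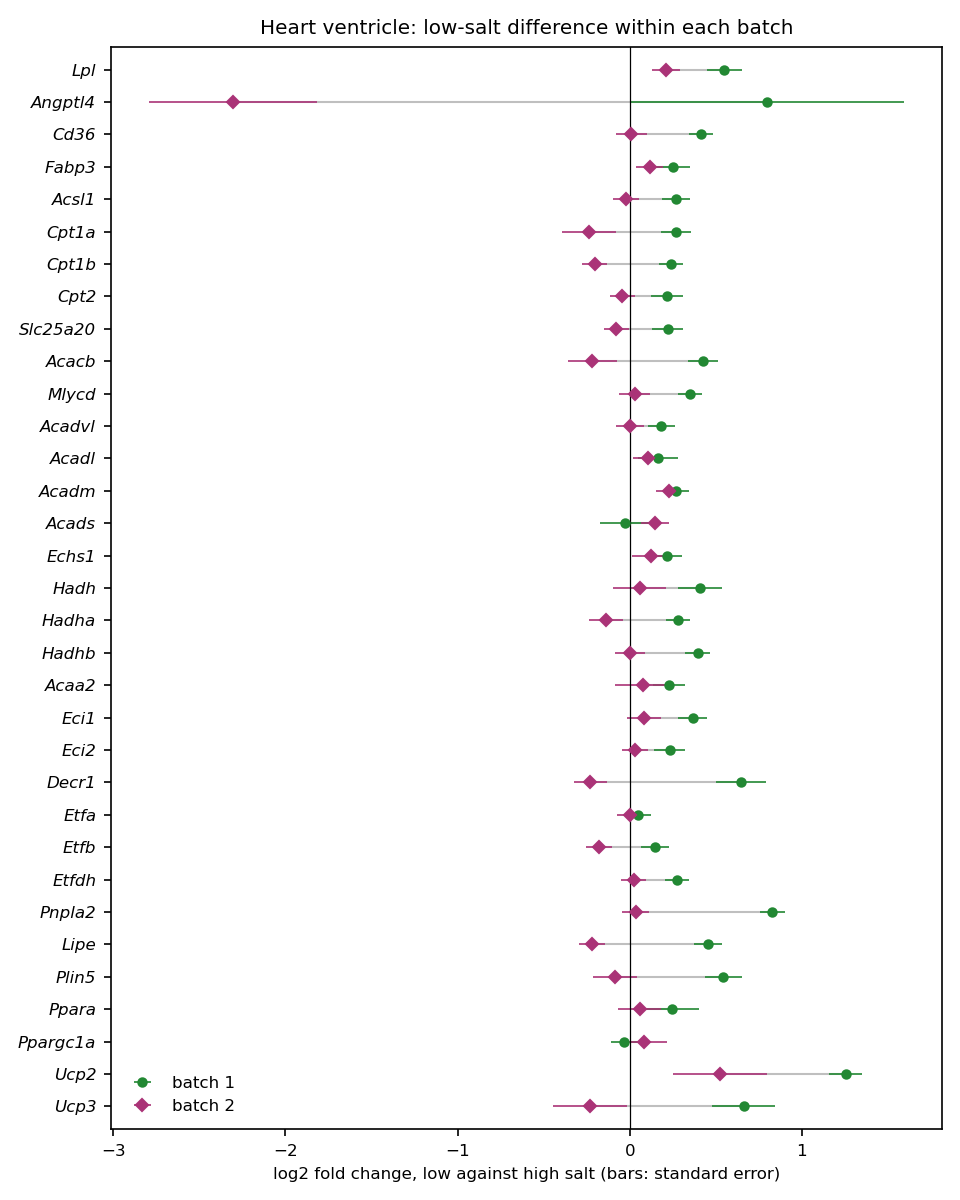
Log2 difference of low against high salt in ventricle for each member, fitted within batch 1 (circles) and within batch 2 (diamonds), with bars of 1 standard error; 2 libraries stand in each group of a batch. Batch 1 lies to the right of batch 2 in 31 of 33 members, and Acads and Ppargc1a have the reverse order.

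Marker sums of cell types also varied between the ventricle libraries. Of the lists given here, only the fibroblast list set the low-salt libraries of batch 1 apart. The 7 fibroblast markers, none at 0, summed to 1409 and 1210 CPM in the low-salt ventricles of batch 1 and to between 2180 and 2766 CPM in the other 6. The 12 cardiomyocyte markers summed to 103400, 101800, 110600 and 110800 CPM on high salt and to 108200, 98440, 94790 and 91790 CPM on low salt. The 9 erythroid markers varied from 2271 to 54920 CPM, and the adipocyte list from 476 to 498 CPM in batch 1 and from 302 to 353 CPM in batch 2. Fabp4, which capillaries also express, made up most of that sum (430 to 477 CPM in batch 1 and 297 to 348 CPM in batch 2). Pck1 of the same list stood at 10.05 to 60.5 CPM in batch 1 and at most 0.196 CPM in batch 2. Like Pck1, the proximal tubule sum was far lower in batch 2, and both were highest in low-salt replicate 2 (60.5 and 163 CPM). Cfd stood at 2.24 to 3.84 CPM in batch 1 and at 3.58 to 4.84 CPM in batch 2, and Adig at 0.768 to 1.74 CPM over both. Cidec stayed at or below 1.19 CPM, Ucp1 at or below 0.663 CPM and Lep at or below 0.114 CPM. Adipoq and Plin1 stayed at or below 0.560 CPM and Retn was at 0. The part of these and of the kidney transcripts of batch 1 in the Pnpla2 interaction and the other batch differences was not tested.

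Between the batches themselves, across both diets, 0 members were called in ventricle with edgeR, where 0.853% of all genes were called higher in batch 2 and 1.39% lower. Before adjustment, 6 members had a p under 0.05 with a higher value in batch 2, and 4 with a lower one (all genes 9.99% and 9.57%), and DESeq2 called 3 higher (Cd36, Cpt1a and Etfdh), against 2.96% of all genes. The difference was positive in 22 members, against 48.9% of all genes. Cpt1a read 50.1, 59.2, 60.6 and 64.8 CPM in batch 1 and 98.2, 78.2, 67.6 and 82.7 CPM in batch 2 (log2 0.44 ± 0.13, adjusted p = 0.126 with edgeR, 0.0240 with DESeq2). Etfdh gave 0.24 ± 0.06 and Cd36 0.31 ± 0.09 (adjusted p = 0.103 and 0.120). Without overlap between batches, 7 members were higher in batch 2 and 1, Etfa, was lower, against 7.69% and 4.38% of all genes.

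In papilla, low salt against high salt gave 0 called members of 31 tested with edgeR, where 1.09% of 18449 genes were called higher and 1.37% lower. Plin5 and Ucp3 fell under the filter on low counts there. Unadjusted p-values lay under 0.05 for 6 members with a higher value on low salt and for 2 with a lower one (all genes 8.98% and 10.6%). The difference was positive in 21 members, against 49.3% of all genes, with a median of 0.11 against -0.00. DESeq2 called 3 members higher (Acadm, Acads and Ppargc1a) and 0 lower, where it called 4.46% and 4.73% of all genes. The same 3 were the members whose groups did not overlap, against 5.64% of all genes in that direction and 5.92% in the other.

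Acadm read 366, 356, 322 and 336 CPM on low salt and 312, 318, 269 and 277 CPM on high salt in papilla (log2 0.22 ± 0.06, adjusted p = 0.0801 with edgeR, 0.000641 with DESeq2). Ppargc1a, the coactivator of mitochondrial genes, read 96.8, 84.1, 88.2 and 92.8 CPM on low salt and 53.8, 65.9, 78.3 and 74.5 CPM on high salt (log2 0.41 ± 0.10, adjusted p = 0.0801). For both genes every low-salt papilla lay above every high-salt one. Acads gave 0.19 ± 0.06 (adjusted p = 0.126). Cd36 gave 1.04 ± 0.34 (adjusted p = 0.142) at levels of at most 1.54 CPM, and Ucp2, at 367, 263, 238 and 281 CPM against 260, 193, 207 and 224 CPM, gave 0.36 ± 0.14 (adjusted p = 0.194). Ucp2 overlapped between the diets. The carnitine shuttle genes Slc25a20 and Cpt2 had negative differences of -0.20 ± 0.07 and -0.17 ± 0.07 (adjusted p = 0.172 and 0.238). Proximal tubule markers, whose summed level ran from 132 to 949 CPM on high salt and from 217 to 1685 CPM on low salt, had positive differences in 10 of 11 (median 0.81), with none at 0. Erythroid markers were positive in 9 of 9 (median 1.05), with sums of 1198 to 4951 CPM on high salt and 2943 to 6642 CPM on low salt. Slc4a1, which is in both the erythroid and the intercalated list, read 731 to 1216 CPM on high salt and 815 to 1649 CPM on low salt. Intercalated cell markers were positive in 6 of 6 (median 0.38) and adipocyte markers in 4 of 6 tested (median 0.52), and none of these markers was called. Pck1 was the largest part of the adipocyte sum, at 33.2 to 87.5 CPM on high salt and 64.8 to 150 CPM on low salt. Both Pck1 and the proximal tubule sum were highest in low-salt replicate 2 (150 and 1685 CPM). Adipoq overlapped between the diets, at 2.09 to 5.09 CPM and 2.36 to 3.99 CPM. In other lists, 1 collecting duct marker was called higher and 1 lower, and 1 endothelial marker lower. The part of these markers in the member differences was not tested.

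Infused aldosterone against control in papilla gave 0 called members of 31, and 0% of 17671 genes were called by edgeR in either direction. Unadjusted p-values lay under 0.05 for 12 members with a higher value with aldosterone and for 0 with a lower one (all genes 6.2% and 3.7%). DESeq2 called 1 member higher, Acadl, and 0 lower, against 1.69% and 0.419% of all genes. The log2 difference was positive in 29 of 31 members, against 50.9% of all genes, with a median of 0.18 against 0.00. In 7 members (Cpt1b, Cpt2, Acadvl, Acadl, Hadha, Etfdh and Lipe) every aldosterone library lay above every control, against 3.67% of all genes, and in 0 members below, against 1.7%.

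Acadl, the long-chain acyl-CoA dehydrogenase, read 145, 140, 146 and 135 CPM with aldosterone and 121, 104, 113 and 113 CPM in controls (log2 0.32 ± 0.07, adjusted p = 0.200 with edgeR, 0.00659 with DESeq2). Cpt1b read 33.5, 46.6, 67.1 and 36.6 CPM against 30.5, 28.0, 30.6 and 21.1 CPM (log2 0.72 ± 0.23, adjusted p = 0.371). Fabp3 read 259, 255, 311 and 169 CPM against 201, 152, 177 and 109 CPM (log2 0.64 ± 0.22, adjusted p = 0.402). Acadl and Cpt1b did not overlap between the groups, whereas replicate 4 with aldosterone placed Fabp3 among the controls. Lpl read 395, 512, 562 and 241 CPM against 362, 242, 290 and 160 CPM (log2 0.70 ± 0.30, adjusted p = 0.493). Ppargc1a read 100, 150, 165 and 106 CPM against 102, 89.9, 97.0 and 75.3 CPM (log2 0.51 ± 0.18, adjusted p = 0.420). Replicates 2 and 3 with aldosterone were the highest for Lpl and Ppargc1a, and both genes overlapped between the groups. Acadm gave 0.04 ± 0.08, Ucp2 -0.14 ± 0.14 and Angptl4 -0.09 ± 0.38.

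Several marker lists had higher median sums with aldosterone, and their highest libraries differed. The thick ascending limb markers summed to 2705, 5020, 5016 and 2635 CPM against 2737, 2885, 2817 and 1237 CPM in controls, highest in replicates 2 and 3 with aldosterone. Fibroblast markers summed to 445, 330, 351 and 164 CPM against 340, 225, 109 and 136 CPM. Erythroid markers summed to 4266, 4925, 3559 and 3718 CPM against 2666, 2711, 2598 and 2116 CPM. Slc4a1, a marker of both the erythroid and the intercalated list, was part of these erythroid sums. It read 1009 to 2162 CPM with aldosterone and 874 to 1482 CPM in controls. All 7 thick ascending limb, 6 of 6 tested fibroblast and 9 of 9 erythroid markers had positive differences, with medians of 0.54, 0.87 and 0.84, and no marker of these lists was at 0 throughout a group. Macrophage and leukocyte markers summed to between 121 and 192 CPM with aldosterone and between 54.9 and 117 CPM in controls. Of these, 9 of 9 tested were positive (median 0.36). Urothelial markers were positive in 6 of 6 (median 0.55) and intercalated cell markers in 5 of 5 tested (median 0.28). Collecting duct markers were positive in 5 of 9 (median 0.02) and proximal tubule markers in 7 of 11 (median 0.23). The part of all these lists in the member differences was not tested.

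**Figure D4:**
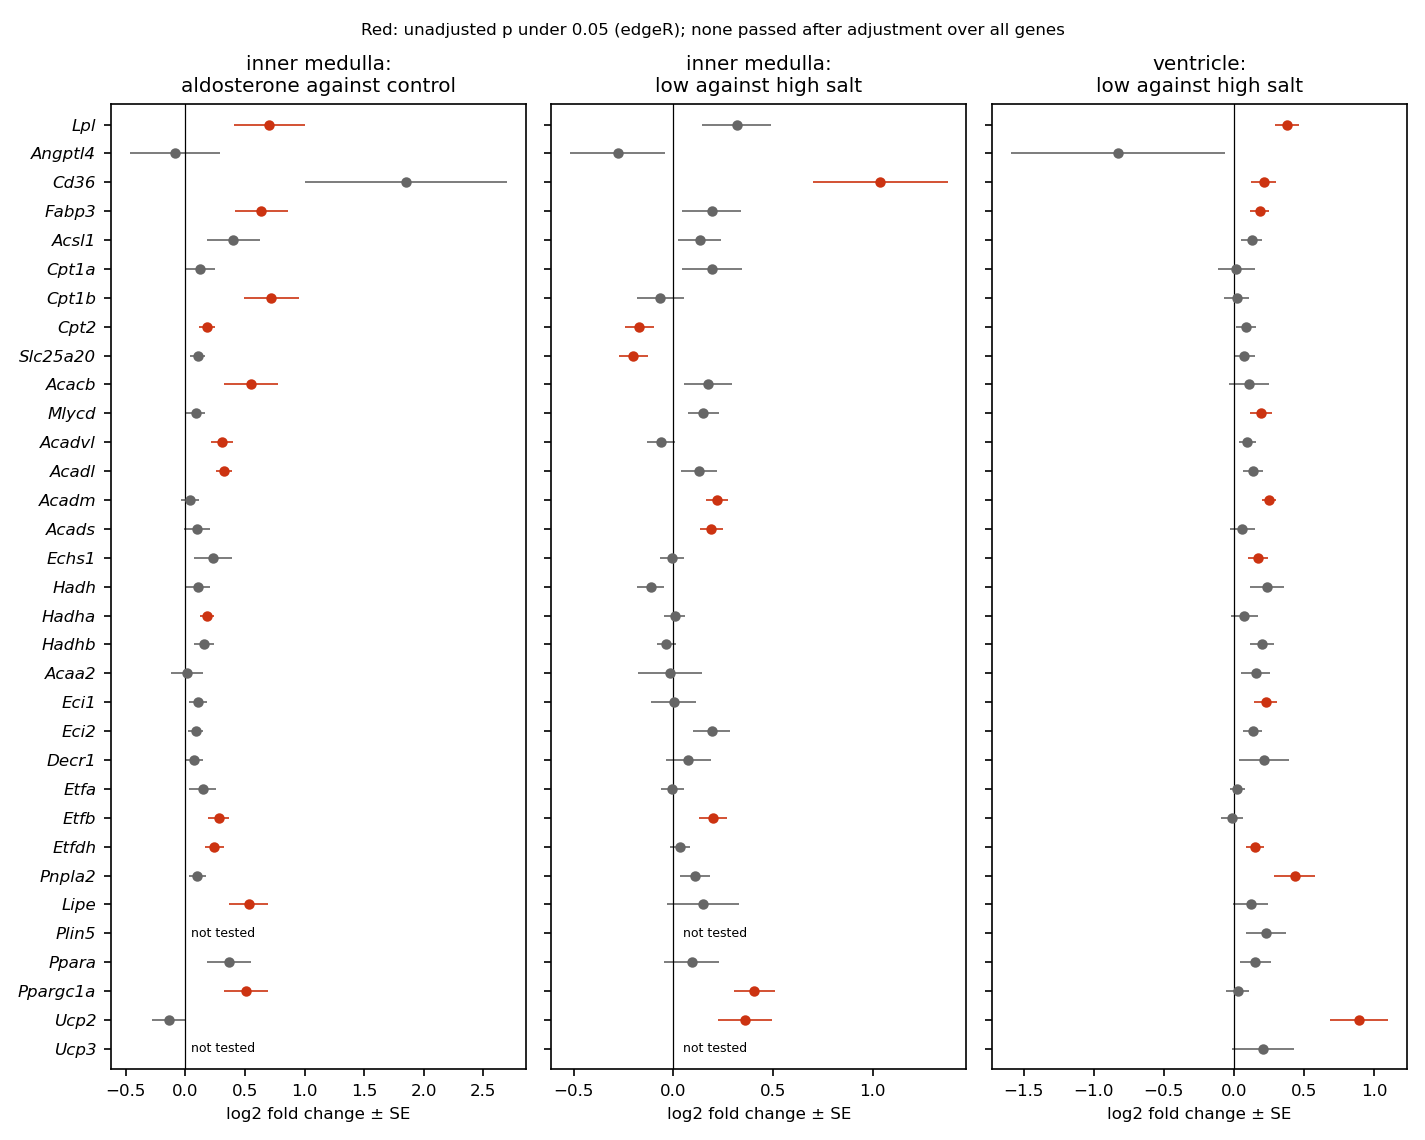
Log2 difference with 1 standard error for each member in the 3 treatment comparisons, 4 libraries a group. Red marks an unadjusted p under 0.05: 12 members with aldosterone, 8 with low salt in papilla and 10 with low salt in ventricle; none passed after adjustment over all genes with edgeR.

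The low-salt response of ventricle was compared with that of papilla as an interaction over 16 libraries. Of 33 members 0 were called with edgeR, where 0.453% of 19408 genes were called higher and 0.376% lower in ventricle. At an unadjusted p under 0.05, 3 members were higher (Cpt2, Slc25a20 and Hadh) and 2 lower (Cd36 and Ppargc1a), against 7.33% and 7.1% of all genes, and DESeq2 called Cd36 lower, against 1.74% of all genes, and 0 members higher, against 2.49%. The difference between tissues was positive in 22 members, against 47.2% of all genes. The Cd36 value was -0.77 ± 0.27 (adjusted p = 0.204 with edgeR, 0.0479 with DESeq2), and it sets ventricle levels over 100 CPM against papilla levels near 1 CPM. Acadm, with the smallest edgeR p among the members in both tissues, gave 0.25 in ventricle and 0.22 in papilla, a difference between tissues of 0.02 ± 0.08 (adjusted p = 0.941). The 2 responses have no libraries in common.

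The other genes of fatty acid metabolism, 135 in 8 lists, were counted in the same fits. In ventricle against papilla, 16 of 19 further mitochondrial oxidation genes were higher and 1 lower, 8 of 18 peroxisomal genes were higher and 8 lower, and 6 of 14 tested uptake and activation genes were higher and 5 lower. Of all genes 36.7% were higher and 41.1% lower, so the peroxisomal and uptake counts lie near those shares. The higher genes with the smallest p were the mitochondrial Nudix hydrolase Nudt8 (log2 4.31 ± 0.08, adjusted p = 5.61e-10), Prkaa2, the catalytic AMPK subunit of muscle (4.29 ± 0.09, adjusted p = 8.83e-10), and the droplet coat gene Plin4 (14.62 ± 0.31, adjusted p = 8.83e-10). The lower ones were the acyl-CoA synthetase Acsl5 (-2.75 ± 0.11, adjusted p = 1.87e-08), the thioesterase Acot1 (-4.99 ± 0.23, adjusted p = 4.56e-08) and the transporter Slc27a4 (-1.93 ± 0.09, adjusted p = 6.91e-08). Acsl5 and the member Acsl1, both acyl-CoA synthetases, had opposite order between the tissues. In papilla, low salt raised 2 of these genes past the threshold: Mgll, monoglyceride lipase, at 408 to 606 CPM against 284 to 342 CPM (log2 0.64 ± 0.11, adjusted p = 0.0378), and peroxisomal Acox2 (1.12 ± 0.20, adjusted p = 0.0385). With aldosterone, and in ventricle on low salt, 0 of the 8 lists' genes were called by edgeR. Unadjusted, 4 of 19 further mitochondrial genes had higher values with aldosterone and 0 lower, against 6.2% and 3.7% of all genes. In ventricle on low salt these counts were 6 and 0 of 19, against 5.68% and 4.92%. DESeq2 called 0 of the 19 with aldosterone and 1 in ventricle, against 1.69% and 1.22% of all genes higher.

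Between the ventricle batches, the genes called in these lists included Gpam, an acyltransferase of glycerolipid synthesis, which was higher in batch 2 (log2 0.47 ± 0.08, adjusted p = 0.0323). Fabp4, a fatty acid binding protein of fat cells and capillaries, Fasn, fatty acid synthase, and Slc27a2 were lower (-0.56 ± 0.06, -0.85 ± 0.13 and -4.78 ± 0.95, adjusted p = 0.00722, 0.0200 and 0.0445). Slc27a2, a transporter of proximal tubule, moved with the proximal tubule markers given for batch 1.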

How the data were processed

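The authors deposited expected counts, estimates with decimals, of 36856 genes in 3 tables, 1 per experiment and tissue, with no scaling to a common total. Per the submitters' processing notes, bcl2fastq 2.19, Trimmomatic, Salmon and MultiQC were used; the genome build, annotation and strandedness option were not stated in them. Per the labels' protocols, the libraries were stranded mRNA libraries read from 1 end. Each of the 24 columns was matched to its sample by the library code in the sample's description.

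The counts were rounded, filtered with filterByExpr (minimum count 10), scaled by TMM and tested with edgeR 4.0.16 in R 4.3.3. The test was the quasi-likelihood F test, with batch as a term in every comparison but the one between tissues. The threshold was 0.05 after Benjamini-Hochberg adjustment over all genes tested, with no fold minimum. DESeq2 1.42.0 was an alternative. The tissue comparison joined 4 ventricle and 4 papilla columns of 2 tables with TMM factors of 0.723 to 1.39. Levels are plain CPM. Exact Poisson-based intervals at 95% on pooled counts cover counting error only. The scripts were tested on simulated data. P-values measure the spread between these libraries, 4 a group. The 36 replicate pairs differed by more than sampling noise (chi-square per gene at least 20.3).

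Deviations from group means correlated between same-numbered libraries at 0.162 to 0.236 in ventricle by diet and 0.220 to 0.311 in the tissue comparison. In the tissue comparison every library correlated best with its own number. In ventricle by diet only replicate 1 did, and replicates 2, 3 and 4 matched 1, 4 and 3 of the same batch. Those deviations include the batch difference, so the ventricle numbers do not establish pairs. Both fits were also run with the replicate number as a block. Members and lists were chosen with earlier results of these data known. The rule for named genes takes all 33 members by role, with values by library for those called and for a fixed set of 15, and up to 3 other genes per direction and comparison with the smallest p among those called at 1 CPM or more; some of these are not reported here. Other settings tried were DESeq2 and its size factors, no count filter, no batch term, each batch alone, and each library left out. Promoter sequences came from RefSeq's GRCr8 table.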

Additional observations from a re-analysis of the deposited data

Results flagged for a closer look

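In 12 of 198 sets of 4 values (33 members in 6 groups), 1 library's gap to its nearest neighbour exceeded Dixon's 95% critical share of the range, which is 6.06% of the sets; chance gives about 1 in 20 sets. In the hormone experiment these were Angptl4 in control replicate 2 at 75.4 CPM, Hadhb in control replicate 4 at 189 CPM, Acaa2 in aldosterone replicate 3 at 129 CPM and Ucp3 in the same library at 0 CPM, where the other 3 libraries held single counts. In papilla on low salt they were Acacb and Echs1 in replicate 2 at 41.4 and 165 CPM and Eci2 in replicate 1 at 76.4 CPM. In ventricle they were Acadl in high-salt replicate 1 at 1899 CPM, Angptl4, Acads and Eci1 in low-salt replicate 1 at 1.37, 486 and 220 CPM, and Ppargc1a in low-salt replicate 3 at 143 CPM. Low-salt ventricle replicate 1 stood apart in 3 of the 12 sets and is one of the 2 libraries with low fibroblast markers.

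The low-salt response of Pnpla2 differed between the ventricle batches by a tested interaction of -0.79 on the log2 scale (batch 2 minus batch 1, edgeR, adjusted p = 0.0465), from a difference in batch 1 and nearly none in batch 2.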

How the results depend on the processing

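Single calls were followed for Pnpla2's interaction and, between tissues, for the members with the smallest p in each direction. Those were Acadvl, Cpt1b, Cpt2, Fabp3, Plin5 and Ppara, and the lower Angptl4 and Cpt1a. No call followed in this way reversed. Of 123 values under other settings, 114 kept direction and call, and the other 9 were Pnpla2's interaction without its call. In all comparisons but the interaction by batch, members called stayed at 0, or at 31 and 2 between tissues, with each library left out. DESeq2 called 1 member with aldosterone (373 of all genes), 3 in papilla on low salt (1695), 2 in ventricle on low salt (303), 3 between batches (1026), 8 in the interaction by batch (376) and 1 between tissue responses (821). Without the count filter these were 0 (4), 0, 1 (85, the member being Ucp2), 1 (818, Cpt1a), 3 (335) and 0. With DESeq2's size factors the interaction by batch had 0 members.

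Without a batch term, papilla on low salt had 165 calls over all genes, ventricle on low salt 1 and the tissue responses 14. Batch 1 alone gave 1 with aldosterone, 0 in papilla and 1 in ventricle on low salt; batch 2 alone gave 240 in papilla and 1 in ventricle. With the replicate block, papilla on low salt had 52 calls in place of 454, ventricle on low salt 0 in place of 8 and aldosterone 0; no member's call changed. Same-numbered papillae correlated at -0.05 to 0.38 with aldosterone and -0.04 to 0.29 on low salt, so those numbers were not taken as pairs.

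With each library left out, calls over all genes ran from 0 to 2 with aldosterone, 2 to 423 in papilla on low salt (2, 84 and 163 calls when low-salt replicates 3, 4 and 2 were left out in turn, and 24, 38 and 70 when high-salt replicates 2, 3 and 1 were), 1 to 8 in ventricle on low salt, 62 to 301 between batches, 0 to 9 in the interaction by batch, 13725 to 14176 between tissues and 11 to 194 between responses. Members called lower in the interaction by batch were 0 each time. There the lone library left in a group of 2 is assumed to vary like the others. The 2 libraries per diet and batch limit the precision of the values within a batch.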
